A study of Mus musculus with 16 samples.

Results

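Reg1, Reg3a, Reg3b and Reg3g, members of the regenerating islet-derived (Reg) family of secreted lectins, were described across 3 RNA-seq experiments in which Cul4b was deleted from mouse small intestinal epithelium. They were found by their gene names and are 4 of the 52525 genes listed in all 3 count tables (52636 genes in the crypt table, 54532 in the KO-IEC organoid table and 52636 in the KO-CAG organoid table). The family was chosen by its knockout (KO) against wildtype (WT) values in these same libraries, so those values are given as a description and without a test. All 4 genes passed the filter on low counts in each experiment.

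Crypts were compared between 4 WT and 4 KO libraries, and organoids, which are epithelial cultures grown from crypts in Matrigel, between 2 WT and 2 KO libraries in each of 2 models. Crypts and KO-IEC organoids came from mice with pVillin-Cre and Cul4b fn/Y, in which Cre acts throughout the intestinal epithelium, and their WT controls were Cul4b fn/Y. KO-CAG organoids carried CAG-CreERT2 and Cul4b fn/Y, in which Cre is active in most cell types once tamoxifen or its metabolite is given, and whether their WT cultures carried the Cre or met the drug was not given. All mice were C57BL/6 and carried the floxed X-linked gene over a Y chromosome. The methods give adult ages for most experiments of the study, but not the age behind each library. They call the replicates of a group biological, without saying which animal or culture each library came from, so p-values measure the spread between these libraries.

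Reg proteins are small C-type lectins that epithelial cells release into the gut lumen and into pancreatic juice. Reg3b and Reg3g bind bacterial surfaces, kill or hold back bacteria and keep the mucus layer next to the epithelium nearly free of them. Their transcription in the intestine is known to rise with microbial signals through MyD88 and with interleukin-22 (IL-22) through STAT3, and Paneth cells and enterocytes both make them. Reg1 was first described in regenerating pancreatic islets and is regarded as a growth factor for gut and islet cells, and Reg3a is a close relative of Reg3b and Reg3g.

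The 4 genes lie in 1 cluster on chromosome 6 of GRCm38, with positions as deposited: Reg3b (ENSMUSG00000071356) at chr6:78370657-78373466 on the plus strand, Reg3a (ENSMUSG00000079516) at chr6:78380709-78383827 on the plus strand, Reg1 (ENSMUSG00000059654) at chr6:78422711-78428667 on the plus strand and Reg3g (ENSMUSG00000030017) at chr6:78466269-78468872 on the minus strand. Together with Reg3d and Reg2, which lie between Reg3b and Reg1, they form a run of 6 Reg genes over 98.216 kb with no other listed gene inside it. Each of the 4 main spliced transcripts has 6 exons and a length of 769 bases for Reg1, 825 for Reg3a, 783 for Reg3b and 771 for Reg3g. Of the 720 to 776 windows of 50 bases in each transcript, 0 were found in a transcript of any other gene on either strand, so reads of that length from 1 of these genes match no other annotated transcript exactly.

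Upstream sequence is shown because the 4 genes sit side by side and yet differed in how far they stood above WT in KO-CAG organoids, by log2 fold changes of 0.45 to 3.54. Each stretch is the 150 bases upstream of the RefSeq start site (GRCm38.p6) that lie nearest to it and hold no annotated exon, ending at position -25 for Reg3b, -54 for Reg1 and -1 for the others, read 5′ to 3′ on the gene's own strand, with capitals for matches to 3 motifs: the TATA box (TATAAA), the STAT element (TTCNNNGAA) and the NF-kB element. For Reg1 and Reg3b the stretch lies inside the deposited gene span given above, since that span begins before the RefSeq start site. Both strands were searched over 300 bases, from 250 before the start site to 50 after it.
Reg3b (chr6:78370711-78370860, plus strand): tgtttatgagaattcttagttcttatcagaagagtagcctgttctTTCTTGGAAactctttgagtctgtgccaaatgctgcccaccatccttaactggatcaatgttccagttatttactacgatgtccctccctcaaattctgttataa
Reg3g (chr6:78468875-78469024, minus strand): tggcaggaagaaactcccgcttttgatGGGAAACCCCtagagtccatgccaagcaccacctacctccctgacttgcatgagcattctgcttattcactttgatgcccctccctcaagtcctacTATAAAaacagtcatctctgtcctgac
Reg3a (chr6:78380559-78380708, plus strand): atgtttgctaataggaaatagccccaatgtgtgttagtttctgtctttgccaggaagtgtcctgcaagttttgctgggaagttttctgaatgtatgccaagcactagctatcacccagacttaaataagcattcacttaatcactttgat
Reg1 (chr6:78425780-78425929, plus strand): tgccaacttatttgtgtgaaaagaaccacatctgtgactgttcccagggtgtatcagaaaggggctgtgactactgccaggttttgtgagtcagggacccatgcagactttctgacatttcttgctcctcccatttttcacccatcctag

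A STAT element was found upstream of Reg3b, from position -129 to -121 relative to the start site, and in none of the windows of the other 3 genes. Reg3d, the neighbour in the cluster searched in the same way, held one as well, from -238 to -230. Whether any match bears on the Reg levels was not tested. An NF-kB element was found upstream of Reg3g, from -123 to -114, and in none of the other 3. TATA boxes stood from -29 to -24 in Reg3b, -27 to -22 in Reg3g and -30 to -25 in Reg1, of which that of Reg3b runs past the end of the stretch shown and that of Reg1 lies beyond it, and none was found at that place in Reg3a. These matches are letters in a window and not shown sites: the STAT element was present in 8.30% of all 32851 RefSeq promoter windows of the same length, the NF-kB element in 8.46% and the TATA box in 13.6%. The longest run of bases shared by 2 of the 4 upstream regions was 20 bases, at the same place (starting at -20) in Reg3b and Reg3g, while no other pair among the 4 shared more than 11.

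Libraries held between 7348191 and 13479974 counts in crypts and KO-CAG organoids and between 15006730 and 16881395 in KO-IEC organoids, and values below are counts per 1000000 library counts (CPM) after TMM scaling. Cul4b itself fell in each experiment, with a log2 fold change of -4.56 ± 0.25 (SE) in crypts (33.9 ± 3.01 CPM in 4 WT, 1.43 ± 0.63 in 4 KO; SD), -5.50 ± 0.22 in the KO-IEC and -4.02 ± 0.16 in the KO-CAG cultures (edgeR adjusted p = 0.000169, 0.0311 and 1.93e-06). Some libraries stood apart: crypt KO3 had a summed Paneth cell marker level of 2198 CPM against 9109 to 23336 in the other 7 crypt libraries, and KO2 of the KO-IEC organoids had a stem cell marker sum of 336 CPM against 1468 to 3593 in the other 3. Mitochondrial ribosomal RNA was also uneven in crypts, at 18.9 to 25.2 CPM in WT1, KO1, KO2 and KO3, 834 and 1078 in WT4 and KO4, and 2840 and 2873 in WT2 and WT3, so its highest class held WT libraries alone. In bulk RNA, fewer cells of a type and less RNA per cell cannot be told apart.

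Reg3b, an antibacterial lectin, was the most abundant of the 4 in crypts and tended to be lower in KO crypts, while it was more than 10 times higher in KO-CAG organoids than in their WT cultures. In WT crypts it stood at 4139, 2539, 4031 and 6131 CPM in WT1 to WT4, and in KO crypts at 2291, 1132, 3399 and 776 CPM in KO1 to KO4. Most KO libraries were below the WT libraries, but KO3 exceeded WT2, so the groups overlapped. The log2 fold change was -1.15 ± 0.45 (SE), and it was -1.58 without KO3.

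In culture, where levels were scaled within each table and are not compared with those of crypts, the 2 models differed from each other. KO-IEC organoids held 18.4 and 79.2 CPM in WT and 27.7 and 52.7 CPM in KO, which overlap fully, with a log2 fold change of -0.28 ± 0.72. KO-CAG organoids held 93.5 and 145 CPM in WT and 1498 and 1273 CPM in KO. Both KO libraries lay far above both WT libraries, with an 11.6-fold ratio of the means and a log2 fold change of 3.54 ± 0.19. Among the 13598 genes tested in KO-CAG organoids, Reg3b ranked as number 34 by log2 fold change, counted from the highest.

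Reg3g, an antibacterial lectin that acts mainly on Gram-positive bacteria, was lower in every KO crypt library than in every WT crypt library, and higher in every KO organoid library of both models than in their WT libraries. In WT crypts its levels were 2466, 1686, 3037 and 2808 CPM, and in KO crypts 1142, 993, 1290 and 429 CPM. The groups did not overlap, with KO4 lowest, and the log2 fold change was -1.38 ± 0.32. How many of all tested genes separated without overlap was not counted in any experiment, for Reg3g or for the other members. Reg3g ranked as number 68 of 13427 tested genes by log2 fold change, counted from the lowest. Its log2 fold change stayed between -1.54 and -1.12 when any 1 library was left out.

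In KO-IEC organoids Reg3g stood at 25.9 and 27.9 CPM in WT and 46.7 and 108 CPM in KO, a log2 fold change of 1.52 ± 0.42 that was 0.80 without KO2. The WT values lay close together and the KO values did not. In KO-CAG organoids it stood at 49.4 and 33.9 CPM in WT and 75.9 and 68.7 CPM in KO, a log2 fold change of 0.79 ± 0.15. The groups again did not overlap, and the difference was smaller than that of Reg3b in the same libraries.

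**Figure D1:**
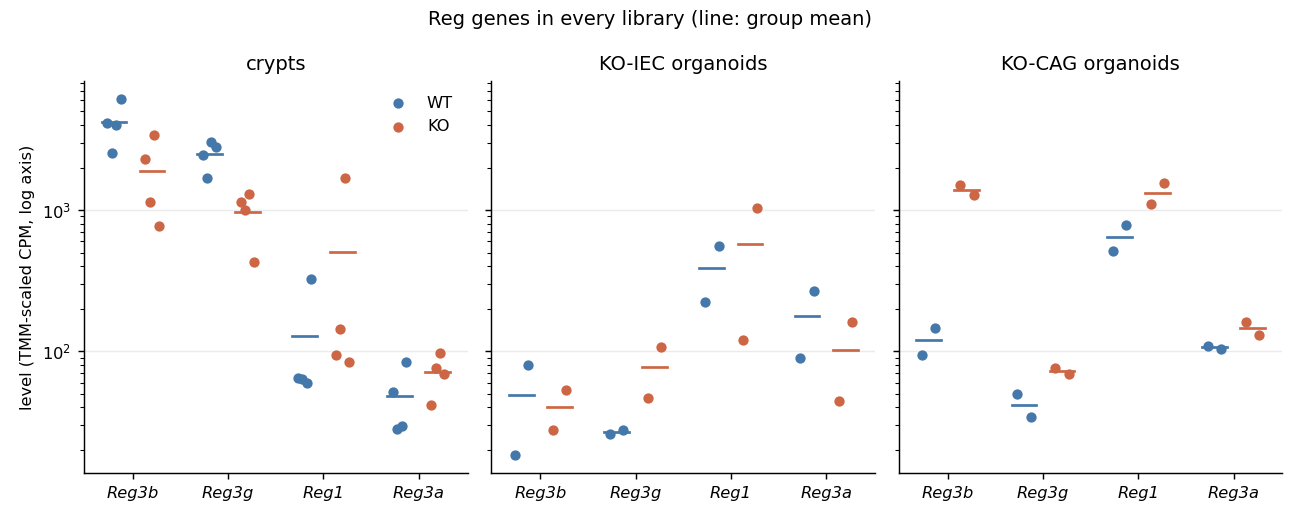
Level of each Reg gene in every library as TMM-scaled CPM on a log axis, with WT in blue, KO in orange and a line at each group mean. Reg3b and Reg3g sat lower in KO crypts, Reg1 in crypts was set apart by KO3 at 1699 CPM, and Reg3b in KO-CAG organoids stood at 93.5 and 145 CPM in WT and 1498 and 1273 in KO.

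Reg3a, the relative of Reg3b and Reg3g, was the least abundant member in crypts, and its groups overlapped there and in KO-IEC organoids. Its levels were 51.5, 28.3, 29.4 and 83.2 CPM in WT crypts and 41.6, 76.1, 96.4 and 69.1 CPM in KO crypts. The groups overlapped, and the log2 fold change was 0.56 ± 0.36. In KO-IEC organoids the values were 89.7 and 265 CPM in WT and 44.5 and 160 CPM in KO, which overlapped, with a log2 fold change of -0.80 ± 0.77 that turned to 0.17 without WT2 and was -1.99 without KO2. In KO-CAG organoids they were 108 and 104 CPM in WT and 161 and 131 CPM in KO. Both KO libraries lay above both WT libraries there, with a log2 fold change of 0.45 ± 0.10, the smallest difference of the 4 genes in that model.

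Reg1, the growth-associated member, was set by a few libraries in crypts. WT1, WT2 and WT3 held 64.8, 63.1 and 59.8 CPM and WT4 held 326 CPM, while KO1, KO2 and KO4 held 94.3, 144 and 83.8 CPM and KO3 held 1699 CPM. The groups overlapped, with 1 library of each genotype far above the rest. The log2 fold change was 1.98 ± 1.06, and without KO3 its sign turned, to -0.25 ± 0.62. Without WT4 it was 3.04.

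The same 2 crypt libraries were high in small intestinal markers of the proximal part, which summed to 4196 CPM in KO3 and 1694 CPM in WT4, each the highest of its genotype (406 to 950 CPM in the other WT and 1545 to 2554 CPM in the other KO libraries). Fabp1 and Lct, which are also enterocyte markers, held 1563 and 1760 CPM of that sum in KO3 and 935 and 405 CPM in WT4. Sums of enterocyte markers (23789 CPM in KO3, 12720 in WT4) and of immune cell markers (461 and 155 CPM) were likewise the highest of their genotype there. Pancreatic acinar markers, checked because Reg1 is abundant in the pancreas, summed to 15.7 CPM in KO3 and 14.1 CPM in WT4 against 6.98 to 10.2 CPM in the other 6 crypt libraries, and only 2 of their 12 genes passed the filter. Cela1 and Ctrl made up most of the sum in those 6. Ctrb1 held 15 counts in WT4 and 15 in KO3, and Pnlip 11 and 11, against at most 3 counts of either gene in the other libraries. Amy2a5 held 11 counts in WT4 but 1 in KO3. These low counts were picked after they were seen, outside the naming rule. The part of any of these markers in the Reg1 values was not tested.

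In organoids Reg1 was the leading member. KO-IEC organoids held 222 and 555 CPM in WT and 120 and 1034 CPM in KO, so the KO pair enclosed the WT pair, and the log2 fold change of 0.57 ± 1.02 ran from -1.69 without KO2 to 1.41 without KO1. KO-CAG organoids held 510 and 782 CPM in WT and 1096 and 1547 CPM in KO, with no overlap and a log2 fold change of 1.03 ± 0.20. That value stayed between 0.74 and 1.37 when any 1 library was left out.

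Counted by the thresholds over all genes, 1 of the 4 members, Reg3g, was called at an adjusted p under 0.05 in crypts, where 6.96% of 13427 tested genes were called. It was also past a 2-fold change, where 1.79% of tested genes were. This call was lost on leaving out any of WT1, WT2, WT3, KO2 or KO3 in turn, under which all genes called fell to between 2 and 20, and it was lost with mitochondrial rRNA class as a covariate, which left 2 genes called. In KO-IEC organoids 0 of 4 were called by edgeR and 0 by DESeq2, beside 0.00717% of 13938 tested genes, with or without the 2-fold limit, which is Cul4b alone. There, 650 genes had an unadjusted p under 0.05, and DESeq2 called 26 genes. In KO-CAG organoids 4 of 4 were called, beside 31.5% of 13598 tested genes, and Reg3b and Reg1 were also past a 2-fold change, beside 8.60%. A single fit of all 16 libraries called 1 of the 4 there, and 477 genes in all. Since the family was chosen from these contrasts, nothing follows from the counts themselves. The 3 experiments share no library.

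Within the crypt libraries of like mitochondrial rRNA, the difference of KO from WT in log2 CPM was -1.003 for Reg3b and -1.12 for Reg3g in the low class (1 WT, 3 KO), and -2.98 and -2.71 in the middle class (1 WT, 1 KO). Reg1 differed by 2.13 in the low class and -1.96 in the middle class, and Reg3a by 0.39 and -0.27. Reg3b and Reg3g were lower in KO within both classes, while Reg1 and Reg3a differed in direction between them. Since the Reg3g groups did not overlap, every split that holds both genotypes must give it that direction, so nothing follows from it. These classes hold too few libraries for a test.

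**Figure D2:**
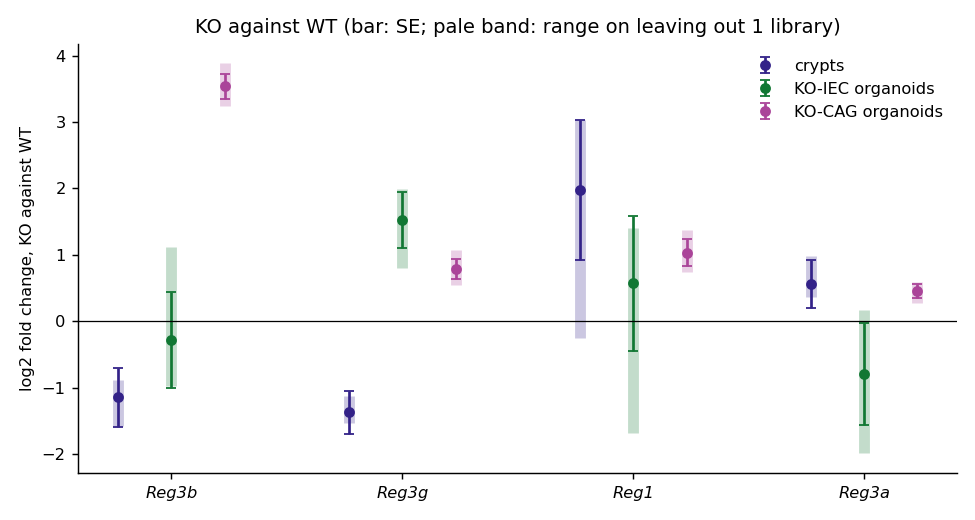
Log2 fold change of KO against WT for each Reg gene in the 3 experiments, with SE bars and a pale band for the range when 1 library at a time was left out. Bands crossed 0 for Reg1 in crypts (-0.25 to 3.04) and for Reg1, Reg3a and Reg3b in KO-IEC organoids, while all 4 bands of KO-CAG organoids lay above 0.

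The order of the 4 genes within a library differed between crypts and organoids. Compared per length, as CPM per kilobase of the deposited gene length, Reg3b ranked first in 8 of 8 crypt libraries, with a mean of 3686 ± 1291 (SD, n = 4) in WT and 1663 ± 1043 (n = 4) in KO. Reg3g followed at 1182 ± 279 in WT and 456 ± 178 in KO. Its range in WT (798 to 1437) lay below that of Reg3b (2224 to 5368), and its range in KO (203 to 610) lay below that of Reg3b (680 to 2977). Both separations were lost with spliced lengths, an alternative chosen after the data were seen, where Reg3g held 2187 to 3939 against 3243 to 7830 for Reg3b in WT and 557 to 1673 against 991 to 4342 in KO. Reg1 came next in 7 of 8 and Reg3a last in 8 of 8, and the ranges of those 2 overlapped in both genotypes. KO3 was the exception, in which Reg1 (1880) stood above Reg3g (610.1).

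In KO-IEC organoids Reg1 was first and Reg3a second in 4 of 4 libraries, though between libraries their ranges overlapped in WT (245 to 614 for Reg1, 109 to 322 for Reg3a) and in KO (133 to 1144 and 54.0 to 194). Reg3b and Reg3g shared the lowest places. In KO-CAG organoids Reg1 was first in 3 of 4 libraries, and in KO1 Reg3b (1312) stood above Reg1 (1213). Reg3b was level with Reg3a in the WT cultures (81.9 and 127 against 131 and 127) and far above it in the KO cultures (1312 and 1115 against 195 and 159). Reg3g was last in 4 of 4.

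Given as shares of the 4 genes' summed level per kilobase of deposited length, Reg3b made up 69.6% to 75.0% in WT crypts and 53.3% to 74.3% in KO crypts. In KO-CAG organoids it made up 10.2% and 11.2% in WT and 47.6% and 36.9% in KO. Reg1 made up 56.9% to 79.7% in KO-IEC organoids and 44.0% to 76.2% in KO-CAG organoids. The deposited length of Reg3g, 2114 bases, counts exons of all its annotated transcripts and is well over its spliced length of 771 bases. With spliced lengths the share of Reg3b was 56.0% to 65.3% in WT crypts and 48.0% to 63.9% in KO crypts. That of Reg3g in crypts was 30.4% to 42.8% in WT and 20.1% to 42.7% in KO, against 18.6% to 28.3% and 10.9% to 27.4% with deposited lengths. The first gene was unchanged in all 16 libraries. In KO1 of the KO-IEC organoids Reg3g was second in place of Reg3a, and Reg3g stood above Reg3b in 3 of 4 KO-IEC organoid libraries, against 1 of 4 with deposited lengths.

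**Figure D3:**
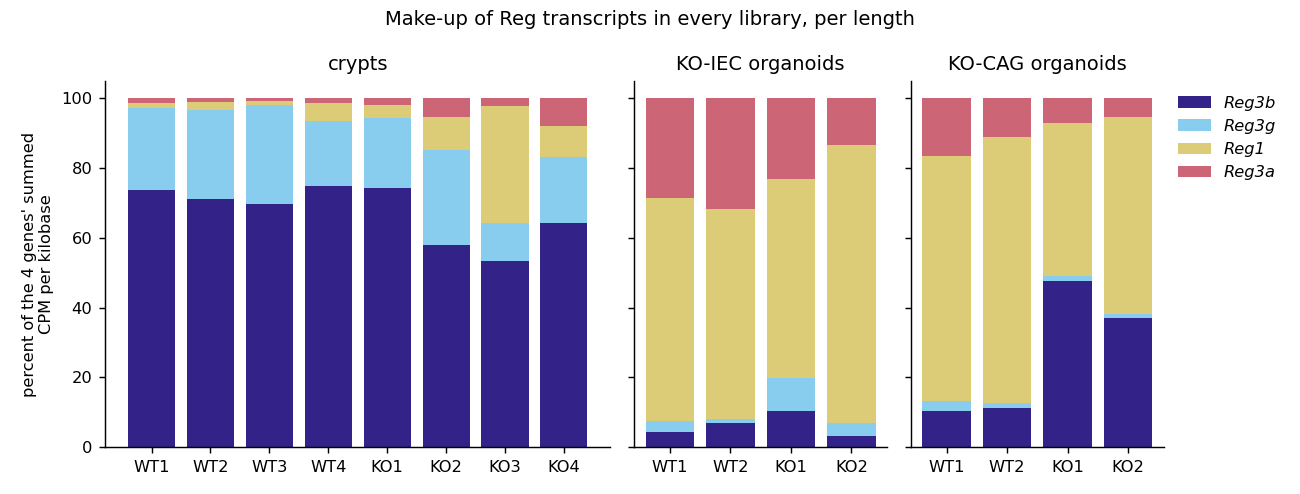
Share of each Reg gene in the summed CPM per kilobase of deposited length of the 4 genes, 1 bar per library. Reg3b filled 53.3% to 75.0% of the crypt bars, Reg1 led in most organoid bars, and the Reg3b share in KO-CAG organoids was 10.2% and 11.2% in WT and 47.6% and 36.9% in KO.

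Seen against all tested genes, levels per deposited length placed Reg3b between rank 7 and 16 in WT crypts and between rank 13 and 72 in KO crypts. Reg3g ranked 29 to 58 in WT crypts and 72 to 299 in KO crypts. In KO-CAG organoids Reg3b held ranks 394 to 648 in WT and ranks 22 to 29 in KO, while Reg1 ranked 39 to 84 in WT and 14 to 26 in KO. The 4 genes together took 0.447% to 0.935% of all counts in WT crypts, 0.132% to 0.594% in KO crypts, 0.0762% and 0.108% in WT KO-CAG cultures and 0.277% and 0.300% in the KO ones. Summed into 1 feature, the 4 genes had log2 fold changes of -1.002 ± 0.44 in crypts, 0.31 ± 0.88 in the KO-IEC model and 1.67 ± 0.14 in KO-CAG organoids.

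The remaining Reg genes were Reg4, Reg3d and Reg2. Reg4, which lies apart on chromosome 3 and is made by secretory cells, averaged 176 ± 9.80 CPM in WT and 311 ± 9.08 CPM in KO cultures of the KO-CAG model (SD, 2 libraries each) and rose there (log2 fold change 0.82 ± 0.09, edgeR adjusted p = 0.000112). It had log2 fold changes of 0.66 ± 0.42 in crypts (adjusted p = 0.307) and -0.19 ± 0.44 in KO-IEC organoids (adjusted p = 0.929). Reg3d, between Reg3b and Reg3a on the chromosome, stayed at or under 3.30 CPM in every library, with log2 fold changes of -0.84 ± 0.41, -0.08 ± 0.80 and 0.37 ± 0.57 in the same order and adjusted p of 0.196, 0.985 and 0.651. Reg2 held at most 0.322 CPM in any library and was not tested. Extl3, reported as a receptor for Reg proteins, had log2 fold changes of 0.07 ± 0.16, -0.02 ± 0.17 and 0.14 ± 0.11 (adjusted p = 0.774, 0.986 and 0.361).

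Upstream of the Reg genes, the ligands IL-22, IL-17A, IL-17F, IL-6 and IL-23, which come mostly from immune cells, were near 0: their 5 genes summed to at most 0.368 CPM in any crypt library and 0.332 CPM in any organoid library, and none passed the filter. Their receptors were expressed. In KO crypts 2 of 5 tested receptor genes rose and 0 fell, beside 6.96% of all tested genes called. Il22ra1, the epithelial IL-22 receptor chain, went from 29.2 ± 7.01 to 56.1 ± 15.1 CPM (log2 fold change 0.94 ± 0.23, edgeR adjusted p = 0.0475). Its groups overlapped, with KO1 (34.0 CPM) below WT4 (39.2 CPM). Il10rb, its partner chain, went from 36.2 ± 5.09 to 53.8 ± 3.40 CPM (0.57 ± 0.11, edgeR adjusted p = 0.0407). The mean levels of both chains were higher in KO crypts, where Reg3g was lower.

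The same 2 receptor genes, of 6 tested, rose in KO-CAG organoids, Il22ra1 by a log2 fold change of 0.77 ± 0.12 (edgeR adjusted p = 0.00088) and Il10rb by 0.43 ± 0.12 (adjusted p = 0.0174). Among all tested genes there 31.5% were called, a like share. In KO-IEC organoids 0 of 6 were called by edgeR and 0 by DESeq2, with 1 at an unadjusted p under 0.05, and Il22ra1 stood at 40.4 and 27.4 CPM in WT and 57.3 and 56.1 CPM in KO. The median log2 fold change of the receptors was 0.22 in crypts, 0.35 in the KO-IEC and 0.39 in the KO-CAG cultures, beside medians over all tested genes of -0.01, -0.01 and 0.00.

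The pathway counts that follow stand beside the 6.96% of all tested genes called in crypts and the 31.5% in KO-CAG organoids. Of the JAK-STAT3 genes, which carry the IL-22 signal, 1 of 9 rose in KO crypts (Jak2, a receptor-bound kinase, 0.75 ± 0.18, adjusted p = 0.046) and 4 of 8 rose in KO-CAG organoids, with 0 falling in either. The 4 were Stat3, the transcription factor (0.78 ± 0.11, adjusted p = 0.000481), the kinases Jak1 (0.34 ± 0.08) and Jak2 (0.36 ± 0.10), and Pias3, an inhibitor of STAT3 (0.53 ± 0.16). They are named here although they fall outside the naming rule and were picked after their values were seen. In KO-IEC organoids 0 of 9 were called by edgeR or DESeq2, and 0 had an unadjusted p under 0.05.

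Microbe sensing and NF-kB genes were called about as often as tested genes in general, with 1 of 16 in KO crypts and 5 of 17 in KO-CAG organoids. In KO crypts it was Tlr3, a sensor of double-stranded RNA, which rose (0.66 ± 0.16, adjusted p = 0.0457). In KO-CAG organoids 4 rose and 1 fell. Myd88, the adaptor through which bacteria induce Reg3g, was among those that rose (0.45 ± 0.15, adjusted p = 0.0418), as were Ticam1, Nfkbia and Rela, while the kinase Ikbkb fell by 0.29 on the log2 scale, all picked after their values were seen. In KO-IEC organoids 0 of 16 were called by edgeR or DESeq2, with 1 at an unadjusted p under 0.05. Calls of pathway and defence genes depended on the fit. In crypts 4 were called, between 0 and 7 with any 1 library left out, and 0 with the mitochondrial rRNA covariate. In KO-CAG organoids 24 were called, between 18 and 29 with any 1 library left out, and 2 in the single fit of all 16 libraries.

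Of the other secreted defence genes in crypts, 0 of 20 were called by edgeR (5 by DESeq2, and 7 at an unadjusted p under 0.05), with a median log2 fold change of -0.24. In KO-CAG organoids 9 of 17 rose and 3 fell, with a median of 0.96. Zg16, a lectin-like goblet cell protein that binds Gram-positive bacteria, rose from 142 ± 18.6 to 602 ± 57.4 CPM (2.08 ± 0.12, adjusted p = 4.22e-06). Transcripts of Pla2g2a, a phospholipase gene of Paneth cells, rose by 2.06 ± 0.15 (edgeR adjusted p = 1.57e-05) and those of Ang4, a Paneth cell ribonuclease, by 1.94 ± 0.13 (adjusted p = 9.34e-06). Whether active enzyme was made was not measured.

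Mmp7, which activates defensins, rose by 1.55 ± 0.09 (adjusted p = 5.52e-06), Mptx2, a Paneth cell pentraxin, by 1.16 ± 0.09 (adjusted p = 1.66e-05), and Lypd8, which binds flagella, by 1.07 ± 0.11 (adjusted p = 9.72e-05). None of these 6 reached the 3.54 of Reg3b. The genes that fell were Ccl28, Sprr2a3 and Mptx1, named after their values were seen. In KO-IEC organoids 0 of 17 were called by edgeR (1 by DESeq2, and 4 at an unadjusted p under 0.05), and the median was 0.10.

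**Figure D4:**
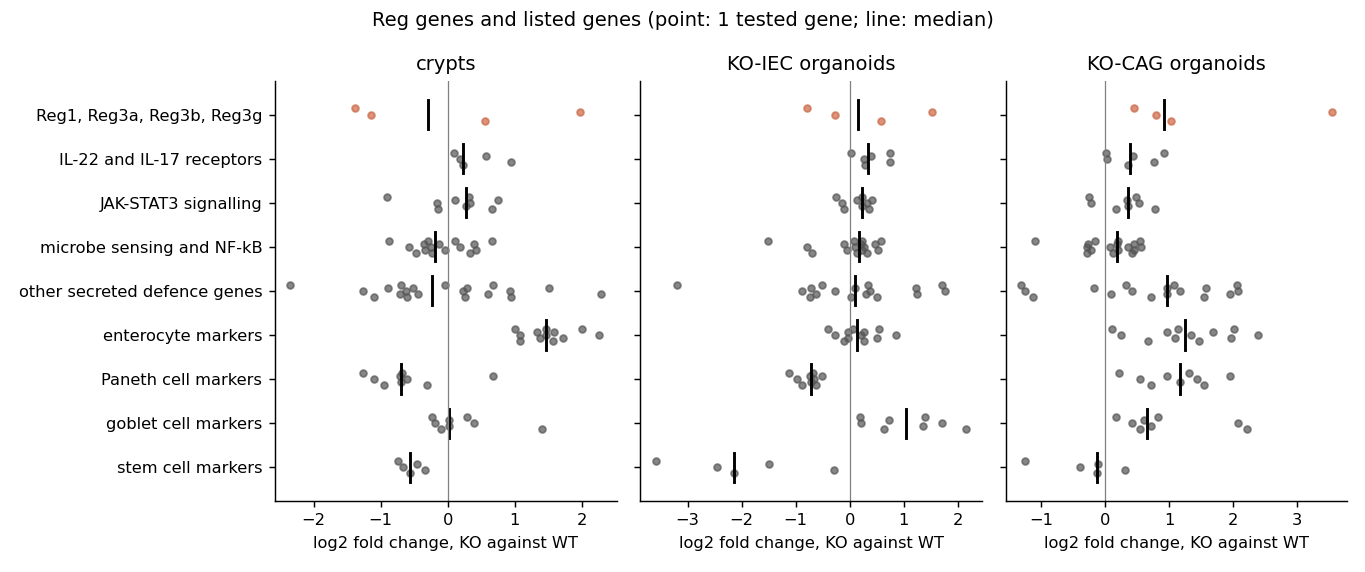
Log2 fold change of KO against WT for the 4 Reg genes and for each tested gene of the pathway, defence and cell marker lists, 1 point per gene and a line at each median. In crypts the Reg genes spread from -1.38 to 1.98, and in KO-CAG organoids all 4 lay above 0, beside medians of 1.24 for enterocyte and 1.16 for Paneth cell markers.

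Markers of the cells that make Reg proteins differed as well, and their part in the Reg values was not tested. In crypts the summed level of 12 enterocyte markers was 3176 to 12720 CPM in WT and 11705 to 23789 CPM in KO, with 12 of 12 higher in KO (median 1.46) and 0 called by edgeR, 8 by DESeq2 and 11 at an unadjusted p under 0.05. Anpep, a brush border peptidase, for example had a log2 fold change of 1.47 ± 0.41 (adjusted p = 0.0565). The sum of 9 Paneth cell markers was 11964 to 23336 CPM in WT and 2198 to 20308 CPM in KO, with 8 of 9 lower (median -0.69) and 0 called by edgeR, 1 by DESeq2 and 1 at an unadjusted p under 0.05. Lyz1, the Paneth cell lysozyme, had -1.10 ± 0.40 (adjusted p = 0.103).

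Within KO crypts the order of the libraries by Reg3g was not their order by either sum. With 4 libraries nothing on cell make-up follows from that order, and the part of cell make-up in Reg3g was not tested. KO4, with the lowest Reg3g (429 CPM), had a Paneth cell marker sum of 20308 CPM, close to that of WT4 (20465 CPM, with Reg3g at 2808 CPM). Single markers of that sum differed. Ang4 (3002 against 672 CPM), Defa24 (9099 against 8159 CPM), Itln1 and Mptx2 were higher in KO4 than in WT4. Lyz1 (2923 against 5389 CPM), Defa21 (511 against 1409 CPM), Defa22 (989 against 1670 CPM), Defa17 and Mmp7 were lower. The whole list is named here, outside the naming rule. KO3, with the lowest Paneth sum, had the highest Reg3g of the KO libraries (1290 CPM) and the highest enterocyte sum (23789 CPM). Immune cell markers summed to 46.1 to 155 CPM in WT and 101 to 461 CPM in KO crypts, with 0 of 11 called by edgeR, 2 by DESeq2 and 2 at an unadjusted p under 0.05.

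In KO-CAG organoids 10 of 12 enterocyte, 8 of 9 Paneth cell and 7 of 8 goblet cell markers rose and 0 fell, with medians of 1.24, 1.16 and 0.66. Apoa1, an enterocyte apolipoprotein, rose by 2.39 ± 0.15 (adjusted p = 6.69e-06). Reg1 (1.03) lay near these medians, Reg3g (0.79) and Reg3a (0.45) below the first 2 of them, and Reg3b (3.54) above every gene of the 3 lists. In KO-IEC organoids 0 markers of the 3 lists were called by edgeR (1 goblet cell marker by DESeq2, with 1 enterocyte, 3 Paneth cell and 2 goblet cell markers at an unadjusted p under 0.05), and the Paneth cell markers were lower in 9 of 9 (median -0.71). Ileal markers also moved with the Reg genes in KO-CAG organoids, where 4 of 4 tested rose (median 1.97) and their sum was 47.2 and 57.9 CPM in WT against 82.7 and 116 CPM in KO. In crypts 1 of 3 tested ileal markers rose, Cubn, a vitamin B12 and protein receptor (2.37 ± 0.48, adjusted p = 0.0407). The sum of the ileal markers there did not overlap between groups, at 64.7 to 140 CPM in WT and 175 to 256 CPM in KO. Fabp6, of the same list, did not follow the sum. It stood at 92.8, 0.993, 0.318 and 54.3 CPM in KO1 to KO4 and at 1.13 to 17.3 CPM in WT. Of the proximal markers 0 of 7 were called in crypts by edgeR (1 by DESeq2, and 2 at an unadjusted p under 0.05), with a median of 1.40, and 3 of 7 rose in KO-CAG organoids, with a median of 0.41.

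Stem cell markers were lower in KO crypts in 5 of 5 (median -0.56), and 2 fell, namely Lgr5, the stem cell receptor for R-spondin (-0.74 ± 0.13, adjusted p = 0.0379), and Ascl2, a stem cell transcription factor (-0.67 ± 0.17, adjusted p = 0.0499). Their sum was 1493 to 2339 CPM in WT and 940 to 1506 CPM in KO crypts. In KO-CAG organoids 2 of 5 fell, Lgr5 (-1.25 ± 0.13, adjusted p = 9.27e-05) and Smoc2 (-0.38 ± 0.10). In KO-IEC organoids 5 of 5 were lower (median -2.15), with 0 called by edgeR, 2 by DESeq2 and 2 at an unadjusted p under 0.05. Cubn, Fabp6, Lgr5, Ascl2 and Smoc2 were picked after their values were seen. Epithelial markers were present in every library, at summed levels of 5064 to 9356 CPM, and stromal markers stayed at or under 6.64 CPM.

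**Figure D5:**
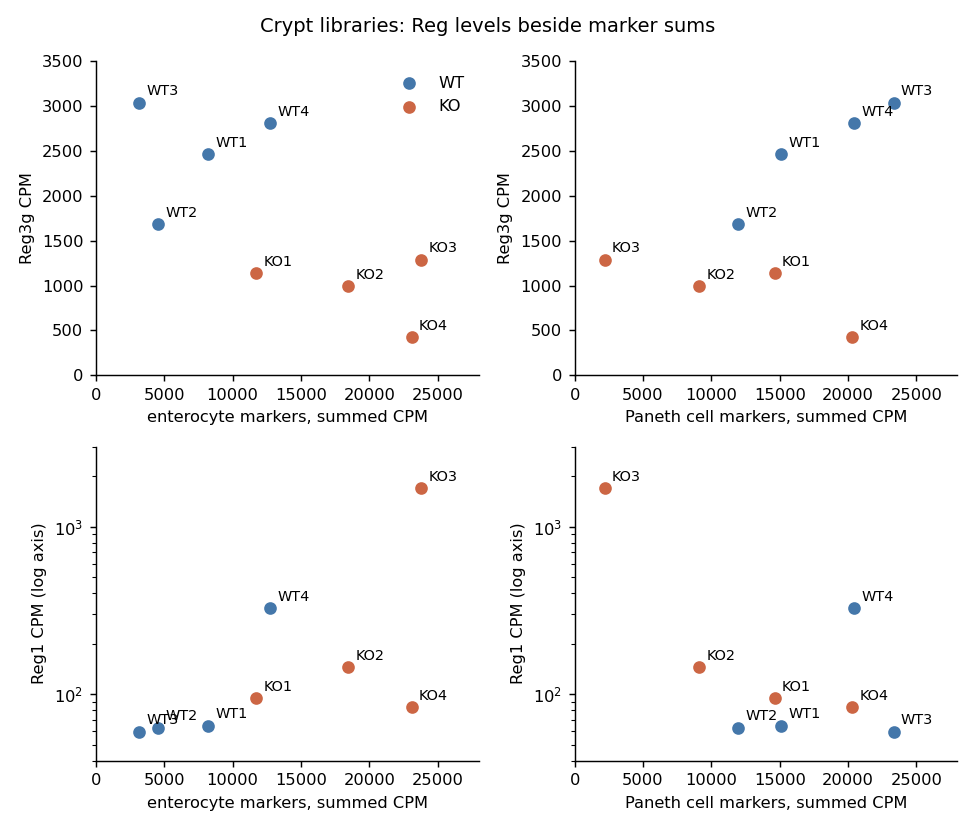
Reg3g (upper row) and Reg1 (lower row, log axis) in each of the 8 crypt libraries against the summed CPM of enterocyte and of Paneth cell markers. KO4 combined the lowest Reg3g, 429 CPM, with a Paneth sum of 20308 CPM, and KO3 combined the highest Reg1, 1699 CPM, with the lowest Paneth sum, 2198 CPM. The sum does not show single markers, of which Lyz1 was lower and Ang4 higher in KO4 than in WT4. The part of either cell type in these Reg levels was not tested.

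To see which genes varied with each Reg gene apart from the genotype, deviations of log2 CPM from the mean of each of the 6 groups were correlated over the 16 libraries, across 12478 genes that passed the filter in all 3 tables. These correlations share libraries and scaling and are given as a description. In each organoid group of 2 libraries the deviations are equal in size and opposite in sign, so fewer than 16 values are independent. The genes named were picked as the highest of 12478, which favours high r. Reg1 was most like Slc16a6 (Pearson r = 0.976), Bche (0.964) and Txlng (0.956), and Reg3a was most like Cndp1 (0.972), Fam20a (0.966) and Gpd1 (0.964). Reg3g was most like B3galt5 (0.904), the clock gene Per2 (0.889) and Znrf2 (0.873).

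Reg3b was most like Elk4 (0.862), its chromosomal neighbour Reg3d (0.841) and Stx16 (0.840). Among the 4 themselves, r ran from 0.405 for Reg3a with Reg3g to 0.749 for Reg1 with Reg3a, and Reg3b with Reg3g had 0.646. Ordered by likeness to Reg3b, Reg3g stood at rank 125.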

How the data were processed

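RNA-seq gene counts of 16 libraries were analysed. The authors deposited 3 tables of raw counts per gene with gene positions and lengths in bases, made, per the submitters' processing notes, with HISAT2 2.0.5 and featureCounts 1.5.0-p3. Genome build, annotation and strand setting were not given in the sources used here, but the deposited positions of the Reg genes and Cul4b match GENCODE M21 on GRCm38. Each table was fitted by itself with edgeR 4.0.16 in R 4.3.3 (filterByExpr, TMM, quasi-likelihood F test, KO against WT, no covariate, Benjamini-Hochberg adjustment over all tested genes). Genes were called at an adjusted p under 0.05, with and without an absolute fold change of at least 2. Log2 CPM used a prior count of 2. Library totals were 7348191 to 16881395, and counting error is small at the levels given, so the spread between libraries limits the precision.

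The 4 members and all gene lists were chosen with earlier results of these data known. Members are named throughout, with Cul4b, the other Reg genes and Extl3. Of the pathway and defence genes, up to 6 per experiment with the smallest adjusted p are named, and of marker lists the 2 most abundant genes or fewer, except where noted. For each member the 3 most alike genes are named. Alternatives were other scalings and filters, DESeq2 1.42.0, 1 fit of all libraries, a replicate block, mitochondrial rRNA class, summed members and leaving out each library. The fits were tested on simulated data. Promoters came from RefSeq (GRCm38.p6) and spliced lengths from GENCODE M21.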

Additional observations from a re-analysis of the deposited data

Results flagged for a closer look

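Of 24 crypt groups of 4 libraries checked (12 genes in WT and in KO), 3 held a library far from the others. Chance flags about 1 in 20 for normally distributed values, which these CPM on a linear scale need not be. All 3 stood at the high end. Reg1 in crypt KO3 stood at 1699 CPM against 83.8 to 144 CPM in the other KO libraries, and Reg1 in crypt WT4 at 326 CPM against 59.8 to 64.8 CPM in the other WT libraries. Tlr3 in crypt WT4 stood at 32.5 CPM against a lowest WT value of 24.7 CPM.

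Reg3g went opposite ways between experiments. Every KO crypt library was below every WT one, and every KO organoid library of both models was above the WT ones. Its log2 fold change was higher by 2.90 in KO-IEC organoids and by 2.16 in KO-CAG organoids than in crypts. These differences between experiments were not tested. How many of all tested genes separated in this way was not counted. With 2 libraries a group, full separation arises easily by chance.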

How the results depend on the processing

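Over the members' log2 fold changes, 149 of 160 alternative values differed from the reported one by less than the spread between libraries, and 153 kept its sign. The exceptions were the middle mitochondrial rRNA class in crypts (Reg1 -1.96, Reg3a -0.27, Reg3b -2.98, Reg3g -2.71) and the leaving out of 1 library. That gave -0.25 to 3.04 for Reg1 in crypts. In KO-IEC organoids it gave -1.69 to 1.41 for Reg1, -0.98 to 1.12 for Reg3b and 0.80 to 2.00 for Reg3g. Reg3a ran there from -1.99 to 0.17, within the spread between libraries but with a change of sign. In KO-CAG organoids it gave 0.28 to 0.59 for Reg3a, 3.24 to 3.88 for Reg3b and 0.54 to 1.08 for Reg3g. In crypts the mitochondrial rRNA covariate gave 0.92 for Reg1, 0.17 for Reg3a, -1.77 for Reg3b and -1.79 for Reg3g.

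Counts of called genes depended far more on the setting, and the cause was not tested. In crypts, against 934 genes (240 with a 2-fold change), DESeq2 called 2457 (515), all 16 libraries in 1 fit 1659 (439), no low-count filter 1479 (527), the rRNA covariate 2 (2) and leaving out 1 library 2 to 2468 (2 to 643). In KO-IEC organoids, against 1 gene, DESeq2 called 26 (26), the joint fit 18 (16), no filter 223 (185) and leaving out 1 library 0 to 2322 (0 to 1118). In KO-CAG organoids, against 4278 (1169), DESeq2 called 2761, the joint fit 477 (273) and leaving out 1 library 2789 to 5177. Members called became 0 in crypts under the rRNA covariate, 2 without the filter and 0 to 1 on leaving out 1 library. They became 1 in KO-IEC organoids without the filter and 0 to 1 on leaving out 1 library, and 1 in KO-CAG organoids in the joint fit, which called 2 pathway and defence genes there in place of 24.

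Under a replicate block, 4 genes (4 with a 2-fold change) and 0 members were called in crypts, and Reg1 had 1.01 and Reg3g -1.44 there. In KO-IEC organoids the block gave 0.0097 for Reg1 and -0.0082 for Reg3b. Pathway and defence genes called became 0 in crypts under the block and under the rRNA covariate. Same-numbered crypt libraries correlated at -0.0437, 0.190, -0.395 and 0.434 in their deviations, so the numbers were not taken as pairs. With 2 libraries a group in organoids, depth was not the limit for the members, and the spread between libraries was.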
